A study of Mus musculus with 37 samples.

Results

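The germline and meiosis genes followed here are 42 genes of the oocyte, of sperm, of meiosis and of the piRNA pathway, taken by name from the 48795 genes of the hippocampal count table. The table identifies genes by Ensembl number, and all 42 were found through the GENCODE M21 annotation of the mouse genome (GRCm38). RNA was sequenced from the hippocampus of 3 male control mice, labelled WT, and of 3 male Kdm1a-ifKO mice, with 1 library of poly-A RNA per sample. In Kdm1a-ifKO mice, floxed exons 5 and 6 of Kdm1a, which encodes a histone demethylase, are removed by a creERT2 recombinase under the Camk2a promoter, which acts in principal neurons of the forebrain. Tamoxifen was administered to all 6 animals at the age of 8 weeks. Littermates lacking the recombinase served as controls, on the same C57BL/6J background. The labels do not give the age at dissection.

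Germ cells use proteins that other tissues keep silent. In meiosis, homologous chromosomes are broken, aligned along a protein axis and recombined, while the piRNA pathway holds transposons in check in the germline. In somatic cells many of these genes are shut off through CpG-rich promoters, by DNA methylation and by repressor complexes that read the E-box CACGTG (MGA with MAX) or an E2F-type motif (E2F6).

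The 6 libraries held between 18985542 and 19469947 counts. Kdm1a itself fell from 80.1 ± 0.897 to 38.2 ± 1.23 CPM (SD, n = 3 each; CPM is the count scaled to a TMM-normalized library of 1e+06 counts). The recombinase leaves the gene intact in cell types where Camk2a is not active. Counts cover the whole gene and not the floxed exons alone, and the source of the remaining counts was not tested. The first principal component separated the genotypes, and the second set control library 3 and Kdm1a-ifKO library 2 apart from the 4 others. The tissue is bulk hippocampus, so fewer cells of a type and less RNA per cell cannot be told apart. The markers listed here for male germ cells and oocytes were at or near 0, apart from the oocyte growth factor Gdf9. Gdf9 had 82 counts over the controls and 79 over the Kdm1a-ifKOs. Some germ cell genes outside these lists did have counts, such as Ddx4 (650 over the 6 libraries), Dazl (450) and Prdm9 (409). Of 10 male germ cell markers, 6 had 0 counts in every library and 0 reached the test, and the summed level lay between 0.157 and 0.269 CPM in controls and between 0.103 and 0.406 CPM in Kdm1a-ifKOs. The protamine Prm1 had 6 counts over the controls and 10 over the Kdm1a-ifKOs, while Prm2, Tnp1 and Akap4 were at 0 throughout. Of 8 oocyte markers, 6 had fewer than 10 counts in all, and the summed counts were 27 to 39 per control library and 26 to 39 per Kdm1a-ifKO library.

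Promoter sequences from RefSeq (GRCm38.p6, from 250 bases before to 50 bases after the start) were at hand for 33 of the 42 genes. Of these, 6 are shown because they span the patterns of expression described later. Zar1, Stag3 and Catsperg1 were raised in Kdm1a-ifKOs, Hormad1 had no count in any library, Mael had counts in 1 library, and Ddx4 had the highest mean level per length in controls. Capitals mark CACGTG, which reads the same on both strands, and the E2F-type motif TCCCGC or its reverse complement GCGGGA.
Zar1, chr5:72581035-72581334 (minus strand): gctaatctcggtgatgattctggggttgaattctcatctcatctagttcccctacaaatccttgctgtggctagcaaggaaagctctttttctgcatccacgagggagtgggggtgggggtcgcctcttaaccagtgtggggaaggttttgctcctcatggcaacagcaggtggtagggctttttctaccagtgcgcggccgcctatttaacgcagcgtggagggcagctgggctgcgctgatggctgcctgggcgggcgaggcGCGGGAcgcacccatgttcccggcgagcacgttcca
Stag3, chr5:138280259-138280558 (plus strand): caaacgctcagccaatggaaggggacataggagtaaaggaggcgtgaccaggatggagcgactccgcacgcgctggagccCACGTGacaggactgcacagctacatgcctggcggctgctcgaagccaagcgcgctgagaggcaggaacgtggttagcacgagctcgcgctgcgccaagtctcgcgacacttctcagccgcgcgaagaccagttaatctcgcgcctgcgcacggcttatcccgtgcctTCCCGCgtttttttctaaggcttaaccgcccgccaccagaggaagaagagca
Catsperg1, chr7:29213984-29214283 (minus strand): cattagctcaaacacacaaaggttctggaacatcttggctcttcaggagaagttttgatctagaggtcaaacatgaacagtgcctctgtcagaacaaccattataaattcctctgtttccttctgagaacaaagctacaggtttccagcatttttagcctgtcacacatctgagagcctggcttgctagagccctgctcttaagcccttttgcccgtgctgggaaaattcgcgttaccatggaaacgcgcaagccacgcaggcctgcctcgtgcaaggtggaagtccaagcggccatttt
Hormad1, chr3:95559427-95559726 (plus strand): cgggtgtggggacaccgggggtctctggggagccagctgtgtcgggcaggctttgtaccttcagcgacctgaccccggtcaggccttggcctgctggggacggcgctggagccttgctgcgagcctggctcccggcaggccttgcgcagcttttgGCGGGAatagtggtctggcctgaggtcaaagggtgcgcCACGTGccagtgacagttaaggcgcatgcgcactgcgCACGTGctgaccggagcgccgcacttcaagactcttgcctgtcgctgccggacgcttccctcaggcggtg
Mael, chr1:166238695-166238994 (minus strand): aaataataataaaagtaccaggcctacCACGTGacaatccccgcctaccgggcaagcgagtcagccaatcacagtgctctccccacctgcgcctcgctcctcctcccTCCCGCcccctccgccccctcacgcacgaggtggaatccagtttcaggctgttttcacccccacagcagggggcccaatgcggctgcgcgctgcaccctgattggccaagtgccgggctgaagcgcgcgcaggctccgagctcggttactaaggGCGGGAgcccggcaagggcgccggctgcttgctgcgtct
Ddx4, chr13:112652261-112652560 (minus strand): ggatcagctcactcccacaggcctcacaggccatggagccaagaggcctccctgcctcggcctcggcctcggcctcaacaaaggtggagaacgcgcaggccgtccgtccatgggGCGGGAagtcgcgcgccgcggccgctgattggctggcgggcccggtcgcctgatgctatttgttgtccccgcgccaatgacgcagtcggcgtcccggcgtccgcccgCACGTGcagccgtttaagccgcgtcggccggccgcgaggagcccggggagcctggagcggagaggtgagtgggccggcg
The motifs did not overlap each other in these windows, and each holds a CpG. They were chosen from textbook knowledge after the expression values were known, and a match is a description of letters, not of a bound site.

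Expression fell into 4 classes. Stra8, Hormad1, Catsper1 and Catsperb had 0 counts in all 6 libraries, 7 genes had 1 to 9 counts in all, 12 had at least 10 counts but did not pass the filter on low counts, and 19 passed it and were tested. In the controls 35 genes had at least 1 count and in the Kdm1a-ifKOs 36. Only 3 genes had counts in Kdm1a-ifKOs and none in controls (Piwil4, Mael and Oxct2a), and 2 had counts in controls alone (Sycp1 and Tex101). All of these stood at 7 counts or fewer. Levels were low throughout. Per exon length, 15 of the 42 genes exceeded 1 TPM (counts divided by exon length and scaled to the same total in each library) in controls and 18 in Kdm1a-ifKOs, and 0 reached the median of the tested genes in controls (17.7 TPM).

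**Figure D1:**
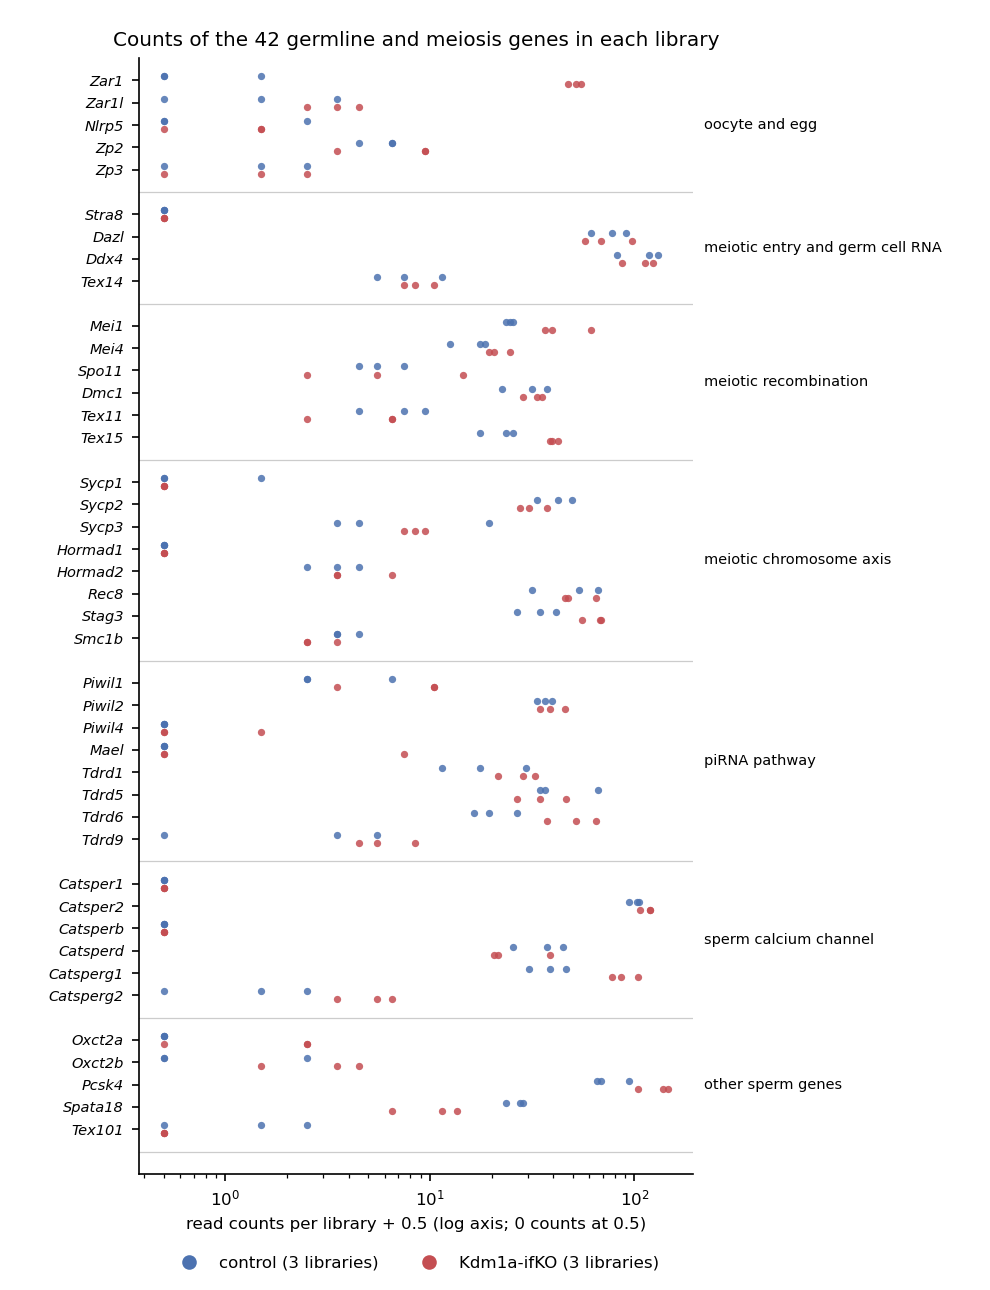
Read counts of the 42 genes in each library, with 0.5 added and a logarithmic axis, in rows grouped by role. Blue points are the 3 control libraries and red points the 3 Kdm1a-ifKO libraries. Zar1 is the gene in which the groups lie farthest apart, at 0 to 1 counts against 47 to 54.

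The groups were compared by the quasi-likelihood F test of edgeR over the 16799 genes that passed the filter, with p-values adjusted over them by Benjamini-Hochberg, and a gene was called at an adjusted p under 0.05. Of the 19 germline genes tested, 7 were higher in Kdm1a-ifKOs, where 6.04% of all tested genes were. With a log2FC over 1 they were 3, against 1.36% of all tested genes, and 1 was lower, against 2.82%. Every Kdm1a-ifKO library lay above every control in 8 of the 19, against 15.7% of all tested genes. The median log2FC of the 19 was 0.15 and that of all tested genes was 0.00. These figures describe the genes that passed the filter and leave out the 23 that did not. The members were chosen with earlier results of these data known, so the shares are no test of enrichment. Zar1 passed the filter through the Kdm1a-ifKO libraries alone and so had to differ, and Spata18 reached the filter's level in only 2 of the 3 Kdm1a-ifKO libraries. All other tested members reached it in all 6 libraries.

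**Figure D2:**
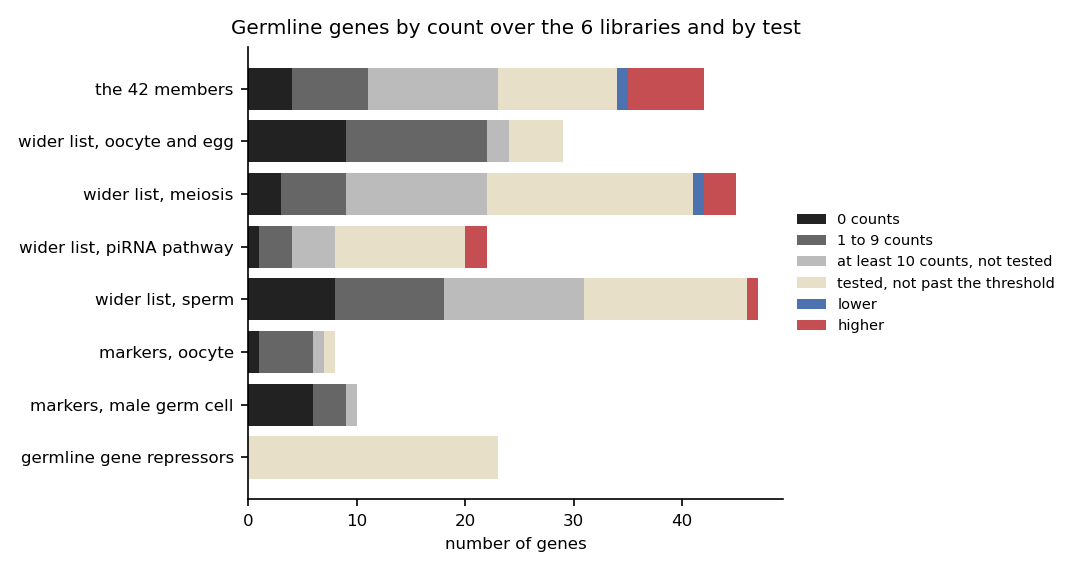
Number of genes in each class of counts and of test result, for the 42 genes, for wider lists of germline genes, for markers of oocytes and male germ cells, and for repressors of germline genes. In the 42 genes the red part stands for the 7 that were higher in Kdm1a-ifKOs and the dark part for the 11 with fewer than 10 counts.

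The oocyte genes were silent or nearly so apart from Zar1. Zar1 (ENSMUSG00000063935, chromosome 5 from 72576806 to 72581254, minus strand) encodes an RNA-binding protein that the egg needs for the start of embryonic development. It had 1, 0 and 0 counts in the controls and 51, 54 and 47 counts in the Kdm1a-ifKOs. The groups were far apart, and the Kdm1a-ifKO libraries lay close together at 2.59 ± 0.166 CPM (SD, n = 3). The ratio of the summed counts was 147, with an exact binomial 95% interval of 26.0 to 5852 that covers counting error only. The fitted log2FC of 6.75 (SE 0.51, edgeR adjusted p = 1.91e-06) depends on the prior count used for the nearly empty controls. Since Zar1 passed the filter through the Kdm1a-ifKO libraries alone, this p-value adds no support to the counts. Its level in Kdm1a-ifKOs was 2.99 ± 0.208 TPM (SD, n = 3).

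The paralogue Zar1l, on the same chromosome, had 3, 0 and 1 counts in controls and 2, 4 and 3 counts in Kdm1a-ifKOs, and the groups overlapped. Of the zona pellucida genes, which encode the coat of the egg, Zp2 had 4, 6 and 6 counts in controls and 9, 9 and 3 in Kdm1a-ifKOs. Zp3 had 3 counts in each group, and Nlrp5, a maternal factor of the early embryo, had 2 in each. For these 4 genes no difference was detectable at this depth.

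No gene of meiotic entry or of germ cell RNA passed the threshold. Stra8, which launches meiosis in response to retinoic acid, had no count, and a count of 0 in a library allows up to 3 counts. Ddx4, the germ cell RNA helicase also called Vasa, was well above 0 with 82, 130 and 117 counts in controls and 112, 86 and 123 counts in Kdm1a-ifKOs. Its log2FC was -0.08 (SE 0.19, edgeR adjusted p = 0.839). Dazl, which binds germ cell mRNAs and promotes their translation, had 61, 77 and 90 counts in controls and 68, 57 and 97 in Kdm1a-ifKOs. Its log2FC was -0.09 (SE 0.22, edgeR adjusted p = 0.855). Both genes overlapped between the groups, and both were already transcribed in controls, at 7.64 ± 1.74 TPM for Ddx4 and 4.18 ± 0.840 TPM for Dazl (SD, n = 3). Tex14, a protein of the bridges between germ cells, had 7, 5 and 11 counts in controls and 8, 7 and 10 in Kdm1a-ifKOs, with overlap.

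Among the genes of meiotic recombination, Mei1 and Tex15 passed the threshold by a small margin. Mei1, needed for the formation of meiotic DNA breaks, lies on chromosome 15 from 82069996 to 82126814. It had 25, 24 and 23 counts in controls and 39, 61 and 36 counts in Kdm1a-ifKOs. All Kdm1a-ifKO libraries lay above all controls, with library 2 the highest. The log2FC was 0.87 (SE 0.25, edgeR adjusted p = 0.0476), and it was 0.60 without Kdm1a-ifKO library 2 (adjusted p = 0.176). Of the 6 fits that each left out 1 library, only the one without Kdm1a-ifKO library 3 kept the call (adjusted p = 0.0454), and the others gave adjusted p-values up to 0.176.

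Tex15, on chromosome 8 from 33516738 to 33585582, takes part in the repair of meiotic breaks and in transposon silencing in the male germline. Its counts were 17, 23 and 25 in controls and 42, 38 and 39 in Kdm1a-ifKOs, again without overlap. The log2FC was 0.82 (SE 0.23, edgeR adjusted p = 0.0457). No fit without a library kept the call, and those adjusted p-values ran from 0.05002 to 0.131.

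The other recombination genes did not pass the threshold. Mei4, a partner in break formation, had 17, 12 and 18 counts in controls and 24, 20 and 19 in Kdm1a-ifKOs, a log2FC of 0.37 (SE 0.29, edgeR adjusted p = 0.464). Its groups did not overlap either. Dmc1, the recombinase that pairs broken strands with the homologue, had 90 counts over the controls and 96 over the Kdm1a-ifKOs (log2FC 0.05, SE 0.25, edgeR adjusted p = 0.936). Spo11, the enzyme that cuts the DNA, had 5, 7 and 4 counts in controls and 5, 14 and 2 in Kdm1a-ifKOs. Tex11, which is X-linked and acts at crossovers, had 4, 7 and 9 counts in controls and 6, 6 and 2 in Kdm1a-ifKOs. Both overlapped between the groups.

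Of the 8 genes of the meiotic chromosome axis, Stag3 was higher in Kdm1a-ifKOs. Stag3, the meiotic cohesin subunit whose promoter is shown with both motifs, lies on chromosome 5 from 138280240 to 138312393. It had 34, 41 and 26 counts in controls and 68, 67 and 55 in Kdm1a-ifKOs, a gap between the groups of 14 counts or more. The log2FC was 0.86 (SE 0.21, edgeR adjusted p = 0.0213). The call was lost without control library 1 or 3 or without Kdm1a-ifKO library 1 or 2, and the 6 fits gave adjusted p-values from 0.0208 to 0.0783.

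Rec8, the cohesin subunit that works with Stag3, did not pass the threshold. It had 53, 66 and 31 counts in controls and 45, 64 and 47 in Kdm1a-ifKOs (log2FC 0.01, SE 0.26, edgeR adjusted p = 0.986). Smc1b, another meiotic cohesin subunit, had 3, 3 and 4 counts in controls and 3, 2 and 2 in Kdm1a-ifKOs and did not pass the filter. Sycp2, part of the lateral elements of the axis, had 33, 49 and 42 counts in controls and 27, 37 and 30 in Kdm1a-ifKOs (log2FC -0.45, SE 0.23, edgeR adjusted p = 0.257). Sycp1, which joins the axes of homologues, had 1 count in all, in control library 1.

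Sycp3, the other lateral element protein, had 3, 4 and 19 counts in controls and 9, 7 and 8 in Kdm1a-ifKOs. Control library 3 held the highest value. Of the exon bases of Sycp3, 660 of 1264 overlap Chpt1 on the opposite strand, a gene with 718 to 938 counts per library. The strand setting of the counting is not given in the sources used here, so the counts of Sycp3 are uncertain. Hormad1, which marks unpaired chromosome axes, had no count. Hormad2, its relative, had 2, 3 and 4 counts in controls and 3, 6 and 3 in Kdm1a-ifKOs.

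In the piRNA pathway, Tdrd6 was higher in Kdm1a-ifKOs. Tdrd6, a Tudor protein of the germ granules of spermatids, lies on chromosome 17 from 43615335 to 43630299. It had 16, 19 and 26 counts in controls and 37, 51 and 64 in Kdm1a-ifKOs, and the groups did not overlap. The log2FC was 1.26 (SE 0.27, edgeR adjusted p = 0.0111), and without Kdm1a-ifKO library 3 it was 1.06 and no longer past the threshold (adjusted p = 0.0547). The other Tudor genes overlapped between the groups. Tdrd1 had 11, 29 and 17 counts in controls and 21, 32 and 28 in Kdm1a-ifKOs (log2FC 0.46, SE 0.33, edgeR adjusted p = 0.434). Tdrd5 had 34, 36 and 66 counts in controls and 34, 46 and 26 in Kdm1a-ifKOs (log2FC -0.41, SE 0.30, edgeR adjusted p = 0.444). Tdrd9, a helicase, had 5, 0 and 3 counts in controls and 4, 8 and 5 in Kdm1a-ifKOs.

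Piwil2, one of the PIWI proteins that carry piRNAs, had 39, 33 and 36 counts in controls and 38, 34 and 45 in Kdm1a-ifKOs (log2FC 0.07, SE 0.21, edgeR adjusted p = 0.878). Piwil1 had 2, 2 and 6 counts in controls and 10, 3 and 10 in Kdm1a-ifKOs, with overlap. Piwil4 had a single count, in Kdm1a-ifKO library 1. Mael, which is needed for piRNA production, had 0 counts in 5 libraries and 7 in Kdm1a-ifKO library 3. Such a value in 1 library of 3 carries no replicate agreement. With no filter on low counts its adjusted p was 0.11.

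**Figure D3:**
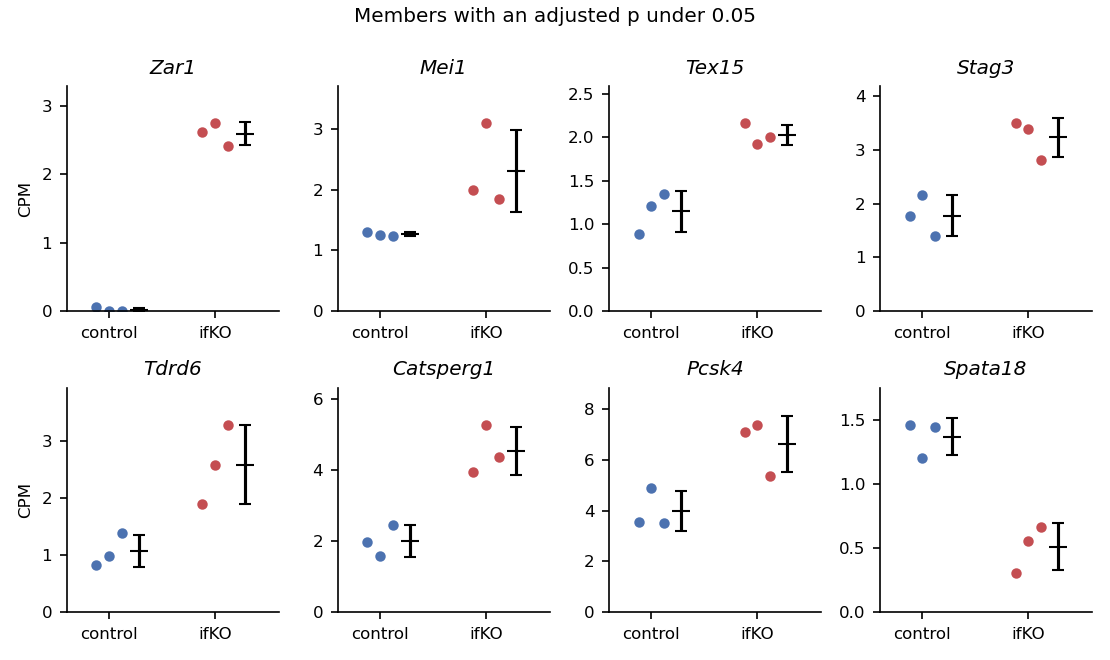
Level in CPM of the 8 genes that passed the threshold, with blue points for the 3 controls, red points for the 3 Kdm1a-ifKO libraries, and bars for the mean ± SD; each axis starts at 0. In 7 genes every Kdm1a-ifKO library lies above every control, and in Spata18 every one lies below.

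The CatSper channel lets calcium into the sperm tail and is built from pore and auxiliary subunits, of which 6 are listed here. The pore subunit Catsper1 and the auxiliary subunit Catsperb had no count in any library. Catsperg1, an auxiliary subunit (chromosome 7 from 29181321 to 29214035), was higher in Kdm1a-ifKOs. It had 38, 30 and 46 counts in controls and 77, 104 and 85 in Kdm1a-ifKOs, so that the lowest Kdm1a-ifKO library exceeded the highest control by 31 counts. The log2FC was 1.17 (SE 0.20, edgeR adjusted p = 0.00261) and stayed between 1.02 and 1.35, past the threshold, with each library left out.

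Catsperg2 is a copy of Catsperg1 on the same chromosome and strand, from 29697219 to 29727032, with other genes between them. Its counts were 2, 0 and 1 in controls and 5, 3 and 6 in Kdm1a-ifKOs. The groups did not overlap, and the ratio of summed counts was 4.52, with an exact binomial 95% interval of 1.26 to 24.5 for counting error only. It did not pass the filter, and with no filter its adjusted p was 0.182. Since the 2 genes are close copies, reads may be lost or exchanged between them, and both values are uncertain.

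The other subunits with counts did not pass the threshold. Catsper2, a pore subunit, was the best expressed, with 105, 93 and 102 counts in controls and 119, 119 and 106 in Kdm1a-ifKOs (log2FC 0.15, SE 0.13, edgeR adjusted p = 0.535). It shares 18 exon bases with Pdia3 on the opposite strand. Catsperd had 44, 37 and 25 counts in controls and 38, 21 and 20 in Kdm1a-ifKOs (log2FC -0.47, SE 0.30, edgeR adjusted p = 0.366). Catsper1 and Catsperb were thus at 0 in libraries in which Catsper2, Catsperd and Catsperg1 each had 20 counts or more.

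Of the other sperm genes, one rose and another fell. Pcsk4, a protease of the sperm surface needed for fertilization (chromosome 10 from 80321283 to 80329498), had 68, 93 and 65 counts in controls and 138, 145 and 104 in Kdm1a-ifKOs. The groups did not overlap, and Kdm1a-ifKO library 3 lay nearest to the controls. The log2FC was 0.73 (SE 0.18, edgeR adjusted p = 0.0221). The call was lost without control library 1 or 3 or without Kdm1a-ifKO library 1 or 2, with adjusted p-values from 0.0118 to 0.0839 over the 6 fits.

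Spata18 is a gene of spermatogenesis whose protein also acts in mitochondrial quality control (chromosome 5 from 73651379 to 73679512). Of the 19 tested genes it was the only one called lower in Kdm1a-ifKOs. It had 28, 23 and 27 counts in controls and 6, 11 and 13 in Kdm1a-ifKOs, without overlap. The log2FC was -1.41 (SE 0.32, edgeR adjusted p = 0.0152). Without Kdm1a-ifKO library 1, the lowest, it was -1.16 and not past the threshold (adjusted p = 0.0664). Tex101, a protein of the germ cell surface, had 0, 1 and 2 counts in controls and none in Kdm1a-ifKOs.

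Oxct2a and Oxct2b encode testis forms of an enzyme of ketone body use and are near-identical genes that lie inside Bmp8a and Bmp8b on chromosome 4. Oxct2a had no count in controls and 2, 2 and 0 in Kdm1a-ifKOs. Oxct2b had 0, 2 and 0 counts in controls and 4, 3 and 1 in Kdm1a-ifKOs. Reads that match both copies may have been dropped, so these counts are uncertain. The host genes, named here after their values were seen, encode growth factors with roles in the germline, and both had more counts in Kdm1a-ifKOs. Bmp8a had 0, 1 and 1 counts in controls and 52, 45 and 44 in Kdm1a-ifKOs, a ratio of summed counts of 68.3 (exact binomial 95% interval 18.6 to 569, counting error only). Bmp8b had 4, 3 and 8 counts in controls and 67, 73 and 57 in Kdm1a-ifKOs (log2FC 3.64, SE 0.31). Both passed the filter through the Kdm1a-ifKO libraries alone and so had to differ. No exon bases are shared between either Oxct2 gene and its host, and whether the few Oxct2 counts came from transcripts of the hosts was not tested.

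**Figure D4:**
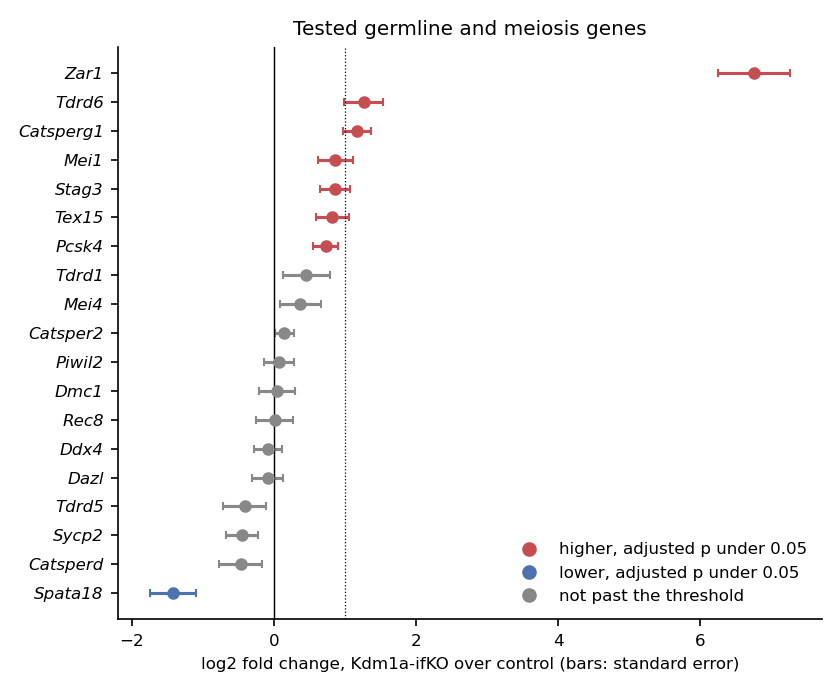
Log2 fold change of Kdm1a-ifKO over control, with its standard error, for the 19 genes that passed the filter. Red points passed the threshold upward (7 genes), the blue point downward (Spata18), and the dotted line marks a log2FC of 1, which Zar1, Tdrd6 and Catsperg1 exceed.

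The size of the calls differed with the libraries used. Without control library 1, control library 3, Kdm1a-ifKO library 1 or Kdm1a-ifKO library 2, the number of higher genes was 3 in place of 7, and these were Zar1, Tdrd6 and Catsperg1. It was 5 without control library 2 or without Kdm1a-ifKO library 3, where Tdrd6 and Tex15 were lost. Without both libraries that the second principal component set apart it was 4, with Tex15 (adjusted p = 0.0499) beside the same 3. Each of the 7 kept its direction in every one of these fits.

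Levels per exon length put the changes in proportion. In controls the order began with Ddx4 at 7.64 ± 1.74, Catsper2 at 5.68 ± 0.377, Pcsk4 at 5.34 ± 1.05, Dazl at 4.18 ± 0.840 and Rec8 at 3.57 ± 1.23 TPM (SD, n = 3 each). The library values of neighbours in this order overlapped. In Kdm1a-ifKOs Pcsk4 reached 8.91 ± 1.52 TPM, Zar1 2.99 ± 0.208 TPM and Catsperg1 2.57 ± 0.402 TPM (SD, n = 3). The other raised genes had been transcribed in controls, between 0.473 ± 0.0946 TPM for Tex15 and 5.34 ± 1.05 TPM for Pcsk4.

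The raised genes were compared with their surroundings. Of the 14 nearest tested genes on either side of the 7 raised genes, 1 passed the threshold, where 8.85% of all tested genes did so in either direction. Reep6, 0.455 kb from Pcsk4, rose from 7.71 ± 0.963 to 11.6 ± 1.07 CPM (SD, n = 3), a log2FC of 0.59 (SE 0.12, edgeR adjusted p = 0.00963). Zar1 lies 17.1 kb from Nfxl1 (log2FC 0.06, SE 0.11, edgeR adjusted p = 0.786) and 45.6 kb from Gm5297 (log2FC -0.02, SE 0.17, edgeR adjusted p = 0.956). Psmd8, 0.62 kb from Catsperg1, had a log2FC of 0.02 (SE 0.05, edgeR adjusted p = 0.893), and Gpc2, 0.235 kb from Stag3, one of 0.10 (SE 0.20, edgeR adjusted p = 0.809). None of the 8 called genes shares exon bases with another annotated gene.

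CTCF loops from ChIA-PET, a single library, were set beside the genes as a description. That sample is labelled WT with tamoxifen, and its nuclei were sorted from principal neurons of male mice carrying Camk2a-creERT2 and the nuclear tag CAG-Sun1/sfGFP, so that these animals, unlike the RNA controls, had the recombinase. An anchor lay within 10 kb of 21 of the 42 genes (50%), against 56.9% of the tested genes. The 42 include 23 genes that did not pass the filter on low counts, so the sets are not alike. Zar1, Stag3, Tex15 and Catsperg1 had none, and Mei1, Tdrd6 and Pcsk4 had one or more. Mei1 was near anchors of 20 loops, whose other ends lay near 8 tested genes. Of these 1 was called, Tnfrsf13c, which was higher in Kdm1a-ifKOs (log2FC 1.95, edgeR adjusted p = 0.00642). The other ends of the Pcsk4 loop lay near 2 tested genes and those of the Spata18 loops near 3, with 0 called. Of all tested genes 8.85% were called in either direction. The loops say nothing of the Kdm1a-ifKO state, which was not analysed here by this assay.

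Promoter letters did not follow the classes of expression in a simple way. The 33 promoters held a median of 17 CpG in 300 bases, and all 32851 promoters of the RefSeq table a median of 7. Where a member had several promoters, only the one nearest the GENCODE start was taken. The 32851 include alternative promoters of a gene, so the sets are not alike. Each motif holds a CpG, and the motif shares were not compared at equal CpG content. An E-box CACGTG stood in 10 of the 33 (30.3%) against 7.15% of all promoters, the E2F-type motif in 15 (45.5%) against 20.0%, and both in 7 (21.2%) against 1.99%. Hormad1, Sycp1, Mael, Zp3 and Sycp3 were silent or did not pass the filter and held both motifs. Ddx4 held both and was transcribed in controls, and Stag3 held both and was raised. Zar1 held the E2F-type motif alone and 17 CpG, and Catsperg1 held neither motif and 8 CpG. Stra8 and Catsperb, with no counts, held neither, and Catsperb had 1 CpG. The promoter given for Mei1 starts 12480 bases inside the GENCODE gene, and those of Piwil1 and Tex101 were also over 1 kb from the GENCODE start. Zp2, Piwil2, Spo11, Pcsk4, Tex11, Catsper1, Tdrd6, Catsperg2 and Tex15 were not matched.

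**Figure D5:**
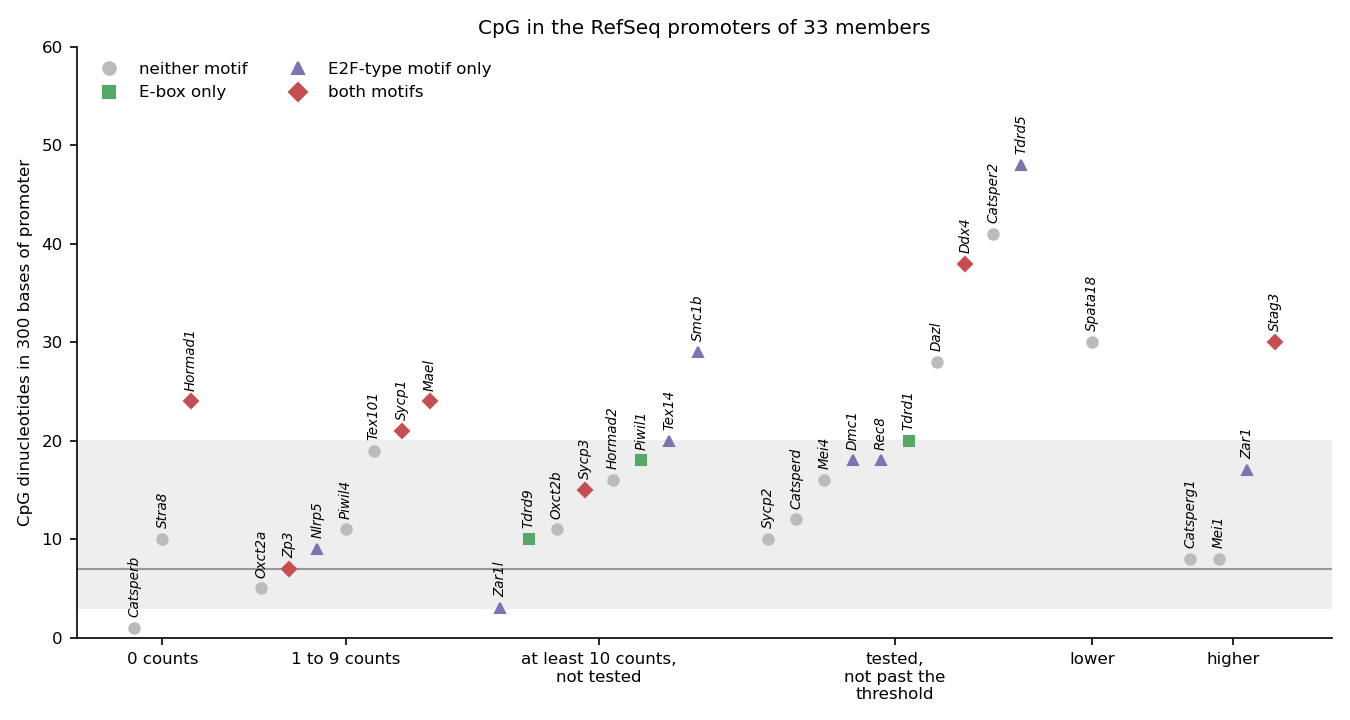
Number of CpG dinucleotides in 300 bases of RefSeq promoter for 33 genes, in columns by class of expression; the symbol shows which of the E-box and the E2F-type motif the promoter holds. The grey band spans the quartiles of all promoters (3 to 20) and the line their median of 7; Stag3 at 30 is the raised gene with the most CpG and Catsperb at 1 the silent one with the fewest.

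The wider lists set the 42 genes among other genes of the same pathways. Of 29 further oocyte and egg genes, 5 were tested and 0 were called in either direction, with 1 at an unadjusted p under 0.05 in edgeR and 0 called with DESeq2. Of 45 further meiosis genes found, 23 were tested, 3 were higher and 1 lower. Of 22 further piRNA genes, 14 were tested and 2 were higher, and of 47 further sperm genes 16 were tested and 1 was higher. The shares over all tested genes were 6.04% higher and 2.82% lower. Over the 58 tested genes of these lists the median log2FC was 0.06.

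Boll, a relative of Dazl and an RNA-binding protein of meiosis, was nearly silent in controls as Zar1 was. It had 1, 1 and 0 counts in controls and 22, 29 and 40 in Kdm1a-ifKOs. Boll too passed the filter through the Kdm1a-ifKO libraries alone and so had to differ. The ratio of summed counts was 44.1 (exact binomial 95% interval 11.9 to 369, counting error only), and the fitted log2FC was 5.22 (SE 0.58, edgeR adjusted p = 6.56e-05). The others were transcribed in controls. Exd1, a piRNA factor, rose from 2.01 ± 0.389 to 4.14 ± 0.347 CPM (SD, n = 3, log2FC 1.04, edgeR adjusted p = 0.00386). Spag6, of the sperm tail and of motile cilia, rose from 2.89 ± 0.373 to 5.99 ± 0.850 CPM (SD, n = 3, log2FC 1.05, edgeR adjusted p = 0.0017). Hspa2, a chaperone of meiosis that the brain also makes, rose from 63.1 ± 4.26 to 95.8 ± 4.21 CPM (SD, n = 3, log2FC 0.60, edgeR adjusted p = 3.82e-05). Mov10, an RNA helicase, had a log2FC of 0.39 (edgeR adjusted p = 0.00791), and Syce2, of the synaptonemal complex, one of 0.49 (edgeR adjusted p = 0.0214). Ythdc2, an RNA helicase needed for meiosis, had a log2FC of -0.34 (edgeR adjusted p = 0.0313). In edgeR, Syce2 lost its call without control library 3 (adjusted p = 0.065) or Kdm1a-ifKO library 1 or 3 (0.0605 and 0.0954). With all libraries, Syce2 was not called with DESeq2 (adjusted p = 0.0563) or in edgeR with a replicate block (adjusted p = 0.0528). Ythdc2 lost its edgeR call without control library 3, where its log2FC was -0.22 (adjusted p = 0.0581). It was also lost without any 1 Kdm1a-ifKO library (adjusted p = 0.0561 to 0.0984).

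Genes that repress germline genes in somatic cells (MGA and E2F6 with their partners, DNA methyltransferases and others, 23 in all) were all expressed, and 0 were called in edgeR or with DESeq2. In edgeR 5 had an unadjusted p under 0.05, the lowest adjusted p was 0.059, and their log2FC lay between -0.19 and 0.35. Some markers of other cells moved with the genotype, where 6.04% of all tested genes were higher and 2.82% lower. Microglial markers were higher for 3 of 5, with a summed level of 227 to 249 CPM in controls and 262 to 323 CPM in Kdm1a-ifKOs. Of 5 choroid plexus markers only Kl was called, and it rose from 24.4 ± 2.26 to 59.0 ± 2.27 CPM (SD, n = 3). The 4 others, Ttr, Folr1, Clic6 and Otx2, overlapped between the groups and summed to 9.57 to 37.1 CPM in controls and 4.94 to 12.3 CPM in Kdm1a-ifKOs. Of 5 astrocyte markers 1 was higher, at 1587 to 1715 CPM in controls and 1864 to 2044 CPM in Kdm1a-ifKOs in sum. Of 6 markers of excitatory neurons 2 were lower, and of 6 interneuron markers 1 was. The excitatory markers summed to 6408 to 6725 CPM in controls and 6314 to 6995 CPM in Kdm1a-ifKOs, with overlap. Of 5 oligodendrocyte markers and of 4 endothelial markers 0 were called. Of 8 ependymal markers 0 were called, with a summed level of 22.7 to 32.5 CPM in controls and 17.9 to 28.7 CPM in Kdm1a-ifKOs. The part of cell composition in the raised germline genes was not tested.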

How the data were processed

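The authors trimmed single-end poly-A reads with cutadapt, aligned them to mm10 (GRCm38) with HISAT2 2.1.0, removed reads of low mapping quality and counted reads per Ensembl gene with HTSeq 0.11.1, tool versions being those of the submitters' processing notes. The deposited values are raw counts without normalization. The authors also deposited PET counts of CTCF loops, each of at least 3 PETs. The strand setting of the counting is not given in the sources used here.

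Libraries were compared by the quasi-likelihood test of edgeR 4.0.16, run in R 4.3.3 after filterByExpr and TMM scaling, with robust dispersions and no covariate; DESeq2 1.42.0, other normalizations and filters, a replicate block and each library left out were alternatives. The main test differs from the authors' DESeq2. CPM uses TMM-scaled library sizes, and TPM divides counts by summed exon length. The 6 libraries hold 18985542 to 19469947 counts, so a gene with 10 counts is known only roughly. A count of 0 was read as up to 3 counts. Tests were tried on simulated data. Nothing states that samples of a group came from separate litters. The p-values weigh the genotype difference against a dispersion estimated from these samples alone, with information shared across genes. Members and lists were chosen with earlier results of these data known. All 42 members are named, and other genes where the adjusted p was under 0.05 in a list, or where they overlap or neighbour a raised member. The columns map to samples by name, and 0 columns were left out.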

Additional observations from a re-analysis of the deposited data

How the results depend on the processing

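With DESeq2, 4 members were higher (Zar1, Tdrd6, Catsperg1 and Pcsk4) and 0 lower; without the libraries control 3 and Kdm1a-ifKO 2, a choice made after seeing the data, 4 were higher. Over the fits that left out 1 library, members higher ranged from 3 to 5, those with a log2FC over 1 from 3 to 4, and members lower from 0 to 1. Genes higher ranged from 646 (without Kdm1a-ifKO library 3) to 876 where 1014 were called with all libraries, genes higher with a log2FC over 1 from 213 to 230, and genes lower from 137 (without Kdm1a-ifKO library 3) to 584 where 473 were called. Genes lower numbered 1090 with no filter on low counts. The labels do not say whether the replicate numbers pair the samples. Same-numbered samples had correlations of deviations of -0.032, -0.089 and -0.144, which cannot show whether the animals were paired. With the replicate block, 5 members were higher (Mei1 and Tex15 were lost) and 249 genes were lower. Other normalizations and filters left the 7 higher members and the 1 lower member as they were, and 0 results changed direction under any alternative. Zar1, Tdrd6 and Catsperg1 were past the threshold with a log2FC over 1 in each of them except Tdrd6 without Kdm1a-ifKO library 3. For Zar1 this adds no support where the filter let it in through the Kdm1a-ifKO libraries alone. The cause of the other differences was not tested. Genes with fewer than 10 counts in all did not pass the filter on low counts, and silence of a gene means no more than a count of 0.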
